A study of Mus musculus with 19 samples.

Results

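The Period, cryptochrome, Bhlhe and Ciart genes make up the repressing arm of the circadian clock, and they are described here in mouse liver after exposure to dibenz[a,h]anthracene (DB[a,h]A), a polycyclic aromatic hydrocarbon. The members are Per1, Per2, Per3, Cry1, Cry2, Bhlhe40, Bhlhe41 and Ciart. All non-control array probes whose RefSeq accession belonged to 1 of these 8 genes were taken, which gave 9 probes among 55681 on the array and 8 genes among 20018 with a symbol. Bhlhe41 had 2 probes and each other gene had 1.

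In the mammalian clock, the transcription factors Clock and Arntl (Bmal1) bind E-box elements and switch on the Per and Cry genes. The Period and cryptochrome proteins then enter the nucleus as a complex and inhibit Clock and Arntl, which closes a daily loop. Bhlhe40 and Bhlhe41 (Dec1 and Dec2) are repressors that compete for E-boxes, and Ciart (Chrono) is a further repressor of Clock and Arntl. In liver, this loop drives daily rhythms in metabolic and detoxification genes, so the level of its members depends on the hour of the day.

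Livers came from male mice of transgenic strain 40.6, aged 10 weeks, sampled 3 days after exposure. The groups held 5 animals at 0 mg/kg (control), 5 at 6.25 mg/kg, 4 at 12.5 mg/kg and 5 at 25 mg/kg DB[a,h]A, with 1 array per animal and no pooling. All groups, controls included, carried the same transgenic background, and the labels used here name neither the transgene nor the hour at which livers were collected. Liver RNA was labelled red and a common RNA made from 11 cell lines of mouse was labelled green, so each value is the log2 ratio of liver over reference on that array.

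The arrays lay on 3 slides, and every slide held all 4 groups. Slide 1, scanned 7 days after the others, had 2 controls and 1 animal per dose. Slide 2 had 2 animals per group, and slide 3 had 2 each at 6.25 and 25 mg/kg, 1 at 12.5 mg/kg and 1 control. Between 35.5 and 56.7% of the spots of an array were detected in liver. The highest correlation between any pair of arrays was 0.9868, and no pair was identical. Of 9 hepatocyte markers kept, the mean log2 ratio of liver over reference was 6.71 to 8.4 at 25 mg/kg and 6.86 to 8.53 in controls.

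Promoter sequence was available for 6 of the 8 genes, from RefSeq on build GRCm38.p6, and is shown because several members varied together. Per2 and Bhlhe40 were not matched. Each line gives the 250 bases before the start of a gene, 5′ to 3′ on its own strand. Capitals mark the E-box CACGTG. They also mark its variant CACGTT, which reads differently when it lies on the opposite strand, as before Cry1 and Cry2. The last element marked is the D-box, in the forms TTATGTAA, TTACGTAA, TTATATAA and TTACATAA.
Per1, chr11:69098699-69098948, plus strand: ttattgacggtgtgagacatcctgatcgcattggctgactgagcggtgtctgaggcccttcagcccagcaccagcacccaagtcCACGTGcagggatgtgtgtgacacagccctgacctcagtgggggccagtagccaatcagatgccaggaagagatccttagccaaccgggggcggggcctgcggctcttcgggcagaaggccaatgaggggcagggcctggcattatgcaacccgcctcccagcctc
Per3, chr4:151044666-151044915, minus strand: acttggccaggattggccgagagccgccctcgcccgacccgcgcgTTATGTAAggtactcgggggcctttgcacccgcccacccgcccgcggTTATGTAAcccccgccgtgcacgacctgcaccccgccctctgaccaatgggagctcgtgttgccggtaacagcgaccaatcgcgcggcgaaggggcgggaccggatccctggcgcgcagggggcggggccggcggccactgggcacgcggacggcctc
Cry1, chr10:85185055-85185304, minus strand: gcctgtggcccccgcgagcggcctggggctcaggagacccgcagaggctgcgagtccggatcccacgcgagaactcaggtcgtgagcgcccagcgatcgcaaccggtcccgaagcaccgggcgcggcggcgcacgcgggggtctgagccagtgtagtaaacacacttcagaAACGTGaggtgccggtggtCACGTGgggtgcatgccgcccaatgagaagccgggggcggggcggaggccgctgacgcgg
Cry2, chr2:92434070-92434319, minus strand: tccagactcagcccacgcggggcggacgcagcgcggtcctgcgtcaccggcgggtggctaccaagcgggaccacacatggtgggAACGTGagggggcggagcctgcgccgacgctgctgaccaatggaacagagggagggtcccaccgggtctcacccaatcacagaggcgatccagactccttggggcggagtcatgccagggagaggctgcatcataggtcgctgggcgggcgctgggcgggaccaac
Bhlhe41, chr6:145865421-145865670, minus strand: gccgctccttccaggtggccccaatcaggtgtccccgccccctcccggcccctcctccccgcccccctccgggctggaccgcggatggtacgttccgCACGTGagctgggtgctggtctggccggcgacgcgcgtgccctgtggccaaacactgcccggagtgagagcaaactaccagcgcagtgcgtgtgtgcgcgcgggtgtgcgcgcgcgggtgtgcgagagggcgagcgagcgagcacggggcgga
Ciart, chr3:95882229-95882478, minus strand: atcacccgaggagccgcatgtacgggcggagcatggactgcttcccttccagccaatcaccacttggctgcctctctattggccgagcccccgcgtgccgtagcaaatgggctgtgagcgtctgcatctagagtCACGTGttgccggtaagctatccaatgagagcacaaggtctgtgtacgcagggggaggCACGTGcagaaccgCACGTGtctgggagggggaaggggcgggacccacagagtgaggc

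Both strands were searched, and no matches shared a base. The E-box CACGTG was found 3 times before Ciart, at 116, 58 and 44 bases before the start, and 1 time each before Per1, Cry1 and Bhlhe41. Of 32851 promoter windows of this length, 6.02% held it. The Per3 window held 2 D-boxes and no E-box, where 1.43% of all windows held a D-box, the element bound by Dbp, Tef, Hlf and Nfil3. Cry2 held only the E-box variant, printed as AACGTG since it lies on the opposite strand, which 3.85% of windows held, and Cry1 held it beside its E-box. The cAMP response element TGACGTCA, present in 1.55% of windows, was in none of the 6, nor in a further window at a later start of Per1, which held none of the capitalised elements. Its shorter core TGACG, left in lower case, occurred before Per1, Cry1 and Cry2 and in 17.8% of all windows. These matches are letters in a window and no binding was measured.

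Detection set what could be read for each gene. In the liver channel, Per1, Cry2 and Bhlhe40 were well above background on 19 of 19 arrays and Per2 on 18. Per3 was above background on 11 arrays, namely 0 of 5 controls, 4 of 5 at 6.25 mg/kg, 2 of 4 at 12.5 mg/kg and 5 of 5 at 25 mg/kg. Ciart was above background on 10 arrays, 1 of 5 controls among them, and Bhlhe41 probe A_51_P451176 on 6. Cry1 was above background in liver on 0 of 19 arrays, and so was the other Bhlhe41 probe, A_55_P2133001. Probes detected in liver on at least 4 arrays were kept for testing, which left 7 of the 9, 1 for each gene except Cry1. Per3 was kept through treated arrays alone and Ciart largely so, so counts over the 7 are descriptions.

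**Figure D1:**
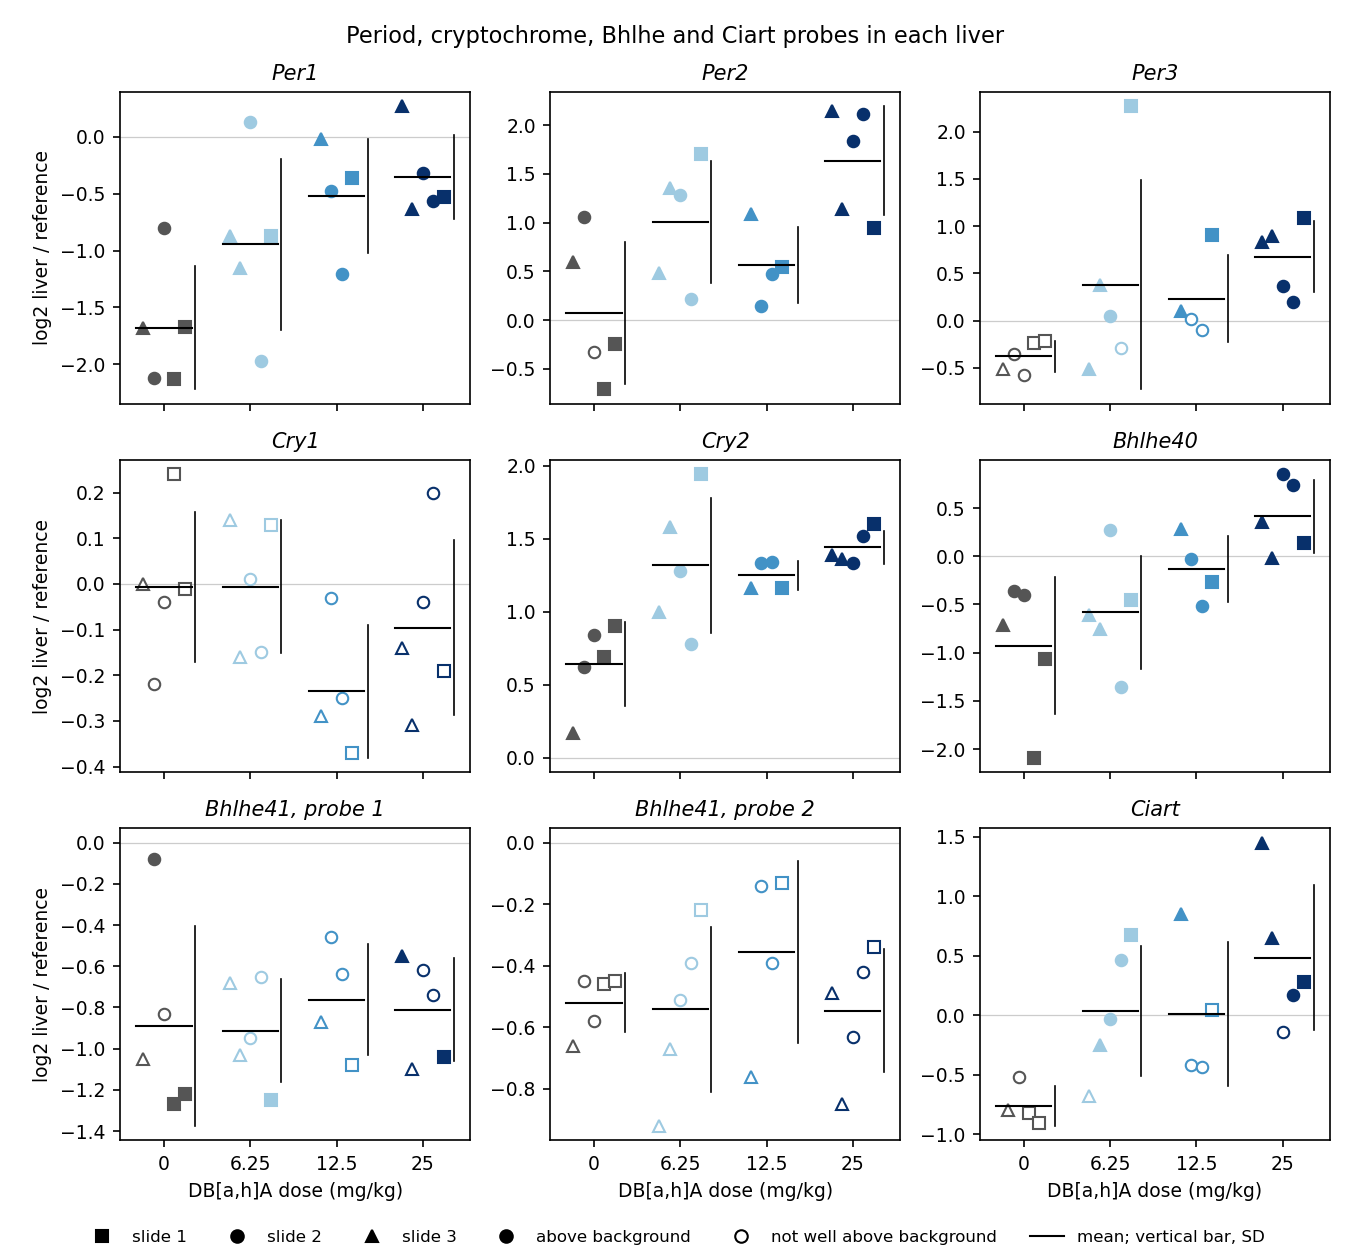
Log2 ratio of liver over reference (y axis) against DB[a,h]A dose in mg/kg (x axis) for each of the 9 probes, 1 point per animal, with the slide as the symbol, a horizontal line at the group mean and a vertical bar of 1 SD on each side. Filled points were well above background in liver and open points were not. Every point at 25 mg/kg lies above every plotted control for Per1, Per3, Cry2, Bhlhe40 and Ciart, though the controls of Per3 and Ciart are all open, and Cry1 and Bhlhe41 probe 2 are open throughout. The y axes differ between panels.

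Per1, on chromosome 11, encodes a Period protein whose transcript also answers acutely to stress hormones and cAMP. Its log2 ratio was -2.13, -2.12, -1.68, -1.67 and -0.8 in controls, and -1.97, -1.15, -0.87, -0.87 and 0.13 at 6.25 mg/kg. It was -1.21, -0.48, -0.36 and -0.02 at 12.5 mg/kg, and -0.63, -0.56, -0.53, -0.32 and 0.27 at 25 mg/kg. The highest control sat below every animal at 25 mg/kg, and the 6.25 mg/kg animals spanned almost the whole range. Per1 averaged -0.36 ± 0.37 at 25 mg/kg and -1.68 ± 0.54 in controls (SD, n = 5 each), a log2 change of 1.32 (SE 0.32, 2.51-fold) that did not pass limma's test after adjustment over all probes (adjusted p = 0.163). With slide as a block it was 1.28 (adjusted p = 0.0722).

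Per2, on chromosome 1, encodes a Period protein that the core loop needs. Its log2 ratio was -0.71, -0.33, -0.24, 0.6 and 1.06 in controls, and 0.22, 0.48, 1.28, 1.35 and 1.7 at 6.25 mg/kg. It was 0.15, 0.47, 0.54 and 1.09 at 12.5 mg/kg, and 0.94, 1.14, 1.84, 2.11 and 2.14 at 25 mg/kg. The groups at 25 mg/kg and control overlapped by a single control animal. The log2 difference at 25 mg/kg was 1.55 (SE 0.35, 2.94-fold, adjusted p = 0.107), and 1.48 with slide as a block (adjusted p = 0.0523). At 12.5 mg/kg its mean was 0.56 ± 0.39 (SD, n = 4), below the 1.01 ± 0.63 at 6.25 mg/kg (n = 5), so its group means did not follow the order of the doses. The mean of Cry2 was also lower at 12.5 than at 6.25 mg/kg (1.25 against 1.32). So were those of Per3 (0.23 against 0.38) and Ciart (0.01 against 0.03), on partly undetected values.

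Per3, on chromosome 4, encodes the Period protein that is dispensable for the core rhythm in mice. Its log2 ratio was -0.58, -0.51, -0.35, -0.24 and -0.22 in controls, none of them above background, and -0.51, -0.29, 0.05, 0.38 and 2.27 at 6.25 mg/kg. It was -0.1, 0.02, 0.1 and 0.91 at 12.5 mg/kg, and 0.2, 0.37, 0.83, 0.9 and 1.09 at 25 mg/kg. All animals at 12.5 and 25 mg/kg lay above all controls. Because no control was above background, the size of the Per3 difference was not measured. The ratio of liver-channel means was 2.1 at 25 mg/kg, where 5 of 5 animals were detected. It was 1.41 at 12.5 mg/kg and 1.78 at 6.25 mg/kg, where only 2 of 4 and 4 of 5 were detected. None of these is a lower bound. An animal at 12.5 mg/kg was undetected at a log2 liver signal of 6.81, above the control mean used. Each ratio sets the treated mean in the liver channel against the mean over control arrays of the higher of the array's detection floor and the probe's own signal. The floor is the lowest signal of any detected probe on the array, and it hardly raised the control mean (log2 6.45, against 6.4 as measured). The fit on ratios at 25 mg/kg, which takes the undetected control values as they stand, gave an adjusted p of 0.424 without the block and 0.0426 with slide as a block.

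Cry2, on chromosome 2, encodes a cryptochrome, which binds Period proteins and inhibits Clock and Arntl. Its log2 ratio was 0.17, 0.62, 0.69, 0.84 and 0.9 in controls, and 0.78, 1, 1.28, 1.58 and 1.94 at 6.25 mg/kg. It was 1.16, 1.16, 1.33 and 1.34 at 12.5 mg/kg, and 1.33, 1.36, 1.39, 1.52 and 1.6 at 25 mg/kg. No animal at 12.5 or 25 mg/kg overlapped the controls, and 1 animal at 6.25 mg/kg did. The spread was narrow at 25 mg/kg (1.44 ± 0.12, SD, n = 5) and wider in controls (0.64 ± 0.29, n = 5). The log2 change was 0.80 (SE 0.18, 1.74-fold, adjusted p = 0.101), and with slide as a block Cry2 rose by 0.86 (1.82-fold, adjusted p = 0.0211). It had the smallest adjusted p of the 7 tested genes in that fit.

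Cry1, on chromosome 10, encodes the other cryptochrome, and its probe gave no usable liver level. Its log2 ratio ranged from -0.37 to 0.24 over the 19 arrays with the liver channel not well above background on any of them. The reference channel of this probe was above background on 15 arrays. No test was made.

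Bhlhe40, on chromosome 6, encodes the repressor Dec1, which also answers to hypoxia and feeding signals. Its log2 ratio was -2.09, -1.07, -0.71, -0.4 and -0.36 in controls, and -1.36, -0.75, -0.61, -0.45 and 0.27 at 6.25 mg/kg. It was -0.52, -0.27, -0.03 and 0.28 at 12.5 mg/kg, and -0.02, 0.14, 0.36, 0.74 and 0.85 at 25 mg/kg. The group means stood in the order of the doses, as did those of Per1, and every animal at 25 mg/kg lay above every control. The log2 change at 25 mg/kg was 1.34 (SE 0.31, 2.53-fold, adjusted p = 0.123), and with slide as a block Bhlhe40 rose by 1.27 (adjusted p = 0.0452). Against 6.25 mg/kg, the difference at 25 mg/kg was 0.99 (unadjusted p = 0.00482, adjusted p = 1).

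Bhlhe41, also on chromosome 6, encodes the related repressor Dec2, and neither of its probes separated the groups. Probe A_51_P451176 ranged from -1.1 to -0.55 at 25 mg/kg and from -1.27 to -0.08 in controls, so the groups overlapped. The difference was 0.08, with a 95% interval of -0.33 to 0.5 (adjusted p = 0.953), and 0.02 with slide as a block (interval -0.28 to 0.32, adjusted p = 0.968). It was detected in liver in 2 of 5 animals at 25 mg/kg and 3 of 5 controls, so most of these values lie near the detection floor. The second probe, undetected in liver on all arrays, ranged from -0.85 to -0.34 at 25 mg/kg and from -0.66 to -0.45 in controls.

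Ciart, on chromosome 3, encodes a repressor that binds Arntl and whose transcript is strongly rhythmic in mouse liver. Its log2 ratio was -0.91, -0.82, -0.8 and -0.52 in the 4 controls with a value, 1 further control spot being marked as an outlier by the scanner software and left out. It was -0.68, -0.25, -0.03, 0.46 and 0.67 at 6.25 mg/kg, -0.44, -0.42, 0.04 and 0.85 at 12.5 mg/kg, and -0.14, 0.17, 0.28, 0.65 and 1.45 at 25 mg/kg. None of these 4 controls was above background, and neither were 3 of 4 animals at 12.5 mg/kg and 1 of 5 at 25 mg/kg. Against the 4 controls, the ratio of liver-channel means, taken as for Per3, was 2.27 at 25 mg/kg, 1.57 at 12.5 mg/kg and 1.8 at 6.25 mg/kg. None of these is a bound, since 4 of 5, 1 of 4 and 4 of 5 treated animals were detected. The fit at 25 mg/kg gave an adjusted p of 0.202 without the block and 0.069 with it. The control left out was above background, and its flagged ratio was 0.33. In an alternative chosen after seeing the data, that control was kept, and 3 of 5 animals at 25 mg/kg and 3 of 4 at 12.5 mg/kg then lay below it (adjusted p at 25 mg/kg = 0.348, and 0.167 with the block).

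At 25 mg/kg against control, 0 of the 7 tested probes passed at an adjusted p under 0.05 without the block, where 0.0578% of all 29415 probes passed in either direction. Before adjustment, Per1, Per2, Cry2 and Bhlhe40 had a p under 0.05, where 7.37% of all probes did. So did Per3 and Ciart, but their controls with a value were not above background, so they are not counted with the others. With slide as a block, Cry2 and Bhlhe40 passed, both higher, where 0.486% of all probes passed as higher. Per3 also passed in that fit, but with no measured control level it is not counted with them. Every animal at 25 mg/kg lay above every control for Per1, Cry2 and Bhlhe40, against 1.01% of all probes. Per3 and Ciart separated as well, but from undetected controls, and Ciart no longer did with its flagged control kept. The calls with the block depended on single arrays. When each array was left out in turn, Cry2 passed in 15 of 19 fits, and it missed without control replicate 1 or 4 or without 25 mg/kg replicate 1 or 4 (highest adjusted p = 0.0889). Per3 and Bhlhe40 each passed in 6 of 19, and so did Per2, which missed with all arrays in. Per1 passed in 3 and Ciart in 2. Per3 kept its call only without 6.25 mg/kg replicate 1, 4 or 5, 12.5 mg/kg replicate 1, control replicate 2 or 25 mg/kg replicate 5. Bhlhe40 kept its call only without 6.25 mg/kg replicate 3, 4 or 5, 12.5 mg/kg replicate 1 or 3, or 25 mg/kg replicate 2.

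**Figure D2:**
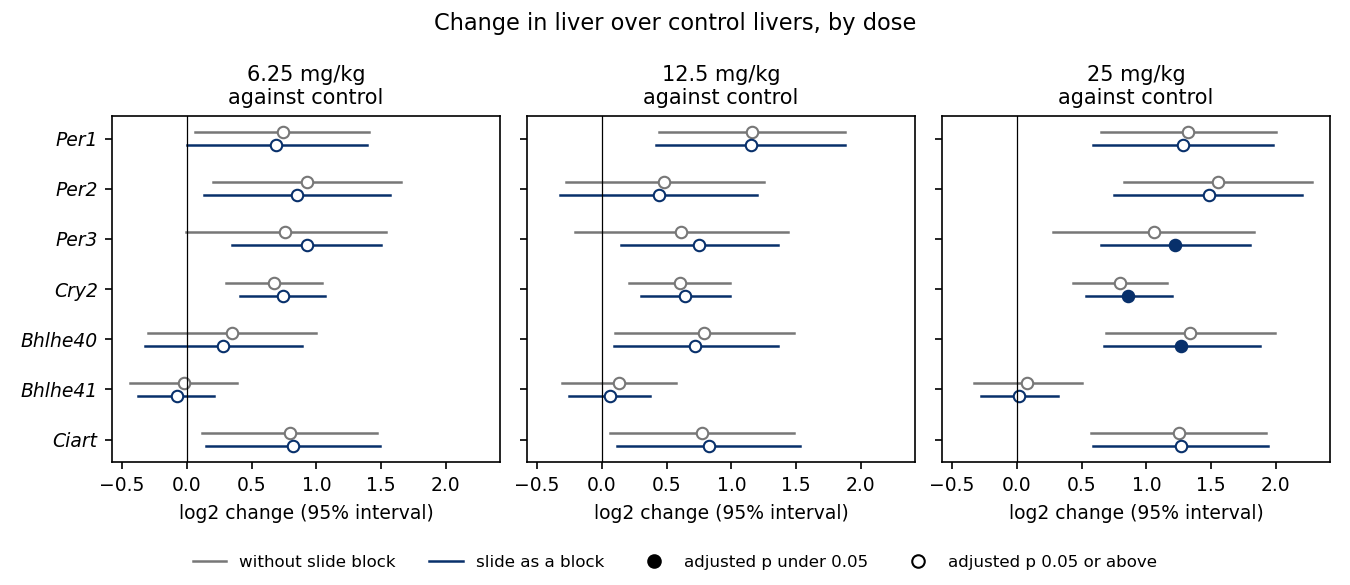
Log2 change over control (x axis, points, with 95% intervals as lines) for the 7 tested genes (rows) at 6.25, 12.5 and 25 mg/kg (panels), without the slide block in grey and with it in blue. Filled points passed at an adjusted p under 0.05, and only Per3, Cry2 and Bhlhe40 at 25 mg/kg with the block are filled. The controls of Per3 and Ciart were not above background, so their points are no measured change. Bhlhe41 stays near 0 in each panel.

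At 12.5 mg/kg the log2 changes were 1.16 for Per1, 0.6 for Cry2, 0.79 for Bhlhe40 and 0.48 for Per2 without the block. None of the 7 probes passed, where 0% of all probes passed without the block and 0.0068% with it. Every animal at 12.5 mg/kg lay above every control for Cry2, against 0.5% of all probes. Per3 and Ciart gave the same order of ratios, but 2 of 4 and 3 of 4 of the animals at 12.5 mg/kg, and every control with a value, were not above background. At 6.25 mg/kg the log2 changes were 0.74 for Per1, 0.93 for Per2, 0.67 for Cry2 and 0.35 for Bhlhe40. None passed, as for 0% of all probes with or without the block, and every gene overlapped the controls. Between 25 and 6.25 mg/kg no probe of the array passed in either fit (0%), and 12.5 mg/kg was not tested against the other doses.

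With the 3 doses averaged, 0 of the 7 probes passed without the block, against 0.0374% of all probes, though Cry2 did with the liver channel alone (0.83, adjusted p = 0.0391). With the block Cry2 alone passed, with a log2 change of 0.75 (SE 0.13, 1.68-fold, adjusted p = 0.0212), where 0.156% of all probes passed as higher. The call was lost without control replicate 1, 2 or 4 (highest adjusted p = 0.124). No member had all 14 treated animals above all controls, and 0.0544% of all probes did. A test of any difference among the 4 groups passed for no member, against 0.0102% of all probes without the block and 0.0748% with it. The linear slope on dose passed for no member without the block (0.0204% of all probes). With the block it passed for Bhlhe40, at 0.0519 log2 units per mg/kg (adjusted p = 0.0474), where 0.177% of all probes passed as higher.

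Slides could be read on their own, as differences with no test. At 25 mg/kg the log2 difference from control on slides 1, 2 and 3 was 1.37, 1.02 and 1.49 for Per1, and 1.41, 1.61 and 1.03 for Per2. It was 1.32, 0.75 and 1.38 for Per3, 0.8, 0.7 and 1.2 for Cry2, and 1.72, 1.18 and 0.87 for Bhlhe40. Ciart gave 1.14, 0.54 and 1.85. These 6 genes were higher at 25 mg/kg on each slide, whereas Bhlhe41 gave 0.2, -0.23 and 0.23. No share of all probes stands beside this, and Per3 and Ciart were set against controls not above background. The Ciart control left out lay on slide 2, with a flagged ratio of 0.33 above the 25 mg/kg mean of 0.02 there. On slides 1 and 3, and for Ciart on slide 2, at least 1 of the groups compared was a single animal. At the lower doses the difference turned or shrank on some slides. Per2 at 12.5 mg/kg was 1.01, -0.06 and 0.49 on slides 1, 2 and 3, and Bhlhe40 at 6.25 mg/kg was 1.13, -0.16 and 0.03. Ciart at 12.5 mg/kg gave 0.91, 0.09 and 1.65.

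The common reference did not read alike on the 3 slides, in green-channel signals rebuilt from the normalized ratios and intensities. The share of the normalization in these differences was not tested. In the green channel, Cry2 stood at 9.89 ± 0.03 (log2 signal, SD, n = 5) on slide 1, 10.33 ± 0.04 on slide 2 (n = 8) and 10.41 ± 0.04 on slide 3 (n = 6). Per3 stood at 6.38 ± 0.17, 6.83 ± 0.09 and 7.17 ± 0.09 on the same slides, while Bhlhe40 ran the other way, at 11.24 ± 0.04, 10.78 ± 0.04 and 10.73 ± 0.06. Ciart's reference stayed within its spread, at 6.95 ± 0.09, 7.05 ± 0.18 and 6.92 ± 0.06 (n = 5, 7 and 6), and the references of Per1 and Per2 stood apart on slide 1 but not between slides 2 and 3. With the liver channel alone, taken from the scanner's processed signal and scaled within each array, Cry2 at 25 mg/kg was 0.98 higher on the log2 scale (adjusted p = 0.0369). Per1 and Bhlhe40 were 1.39 and 1.32 higher on that scale, close to their ratios, and neither passed. The other 3 moved more. Per2, Per3 and Ciart stood at 1.97, 2.56 and 3.8 with the liver channel alone and at 2.32, 2.45 and 3.96 with ratios of processed signals. The fit on normexp ratios gave 1.55, 1.06 and 1.25. None of the 3 passed with the liver channel alone or with processed signals (adjusted p from 0.0536 to 0.197). The controls of Per3 and Ciart with a value were not above background, so none of their values here is a measured change.

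The animals of a group were far apart for most members. The SD within groups was 0.56 for Per1, 0.6 for Per2, 0.64 for Per3, 0.54 for Bhlhe40 and 0.53 for Ciart, against a median of 0.23 over the 29415 probes. Per3 stood at the 97.0th percentile of all probes in this spread, Per2 at the 96.1th, and Cry2, with an SD of 0.29, at the 67.5th. With slide removed as well, the median over all probes was 0.16. Percentiles were then 97.9 for Per3, 99.1 for Per2 and 88.1 for Cry2 (SD 0.27). Each animal at 25 mg/kg exceeded the highest control for 5 or 6 of the 7 genes. At 12.5 mg/kg the count was 3 to 6, and at 6.25 mg/kg it was 1 to 6, with Ciart read against its 4 controls. Per3 and Ciart, whose controls with a value were not above background, were among the genes counted in every animal at 25 mg/kg. No share of all probes stands beside these counts, so they are descriptions only.

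For Per1, Per3 and Cry2 the SD was largest at 6.25 mg/kg (0.75, 1.11 and 0.46), whereas Per2, Bhlhe40 and Bhlhe41 were more spread in controls and Ciart at 12.5 and 25 mg/kg. At 6.25 mg/kg, replicate 5, on slide 1, had the highest value of all 19 animals for Per3 (2.27) and Cry2 (1.94). It also had a low Arntl ratio (-2.25) against 1.44 and 0.98 in the controls of its slide. Replicate 3 of that dose exceeded every control with a value for 6 of the 7 genes, Per3 and Ciart among them, with Per1 at 0.13 and Bhlhe40 at 0.27. Replicates 1 and 4 of that dose did so for 1 gene each (Cry2 and Ciart), with Per1 at -0.87 and -1.97. Without 6.25 mg/kg replicate 5, the Per3 difference from control at that dose was 0.29 in place of 0.76. It was the lowest of the fits that left out 1 array.

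**Figure D3:**
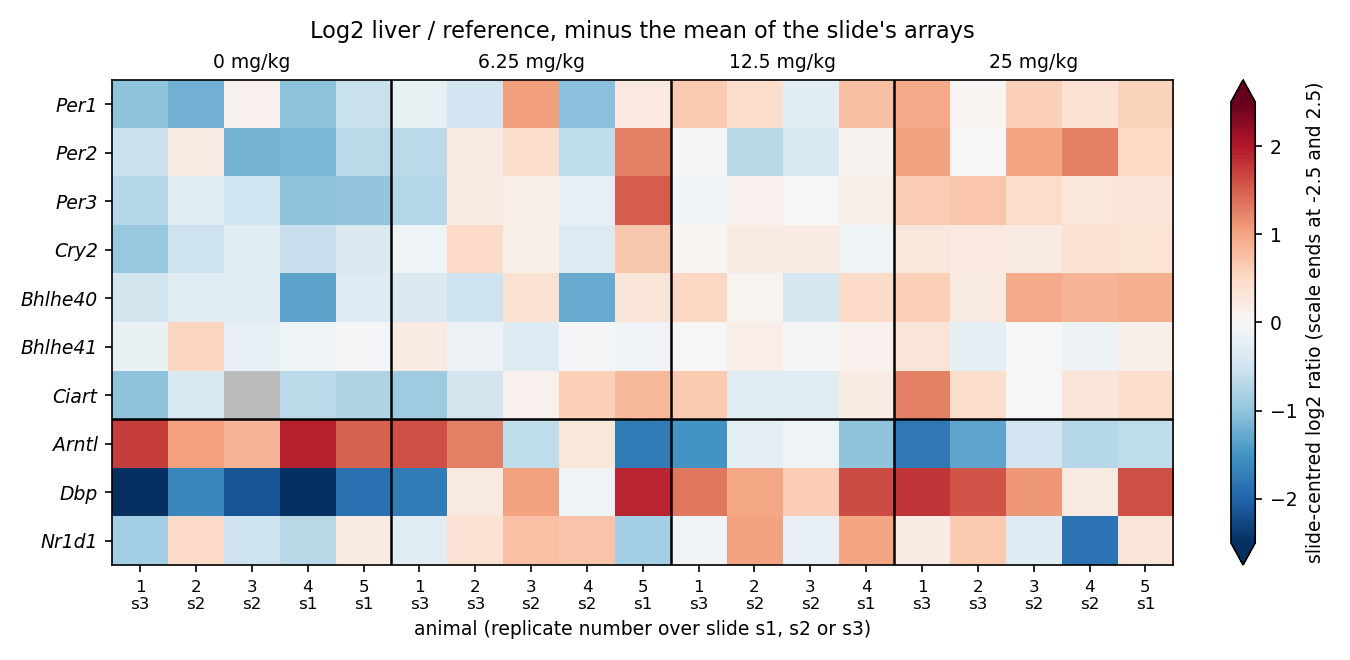
Slide-centred log2 ratio of liver over reference (colour, red higher and blue lower) for the 7 tested genes and for Arntl, Dbp and Nr1d1 (rows) in each of the 19 animals (columns, by dose from 0 to 25 mg/kg, with replicate number and slide below). The grey cell is the missing Ciart value. At 6.25 mg/kg, replicate 5 is red for Per2 and Per3 and blue for Arntl.

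Members varied together across animals. Pearson r was computed on ratios centred on the mean of their slide, with 100000 permutations of the animals within slides and adjustment over 42 relations. Among the 6 tested genes other than Bhlhe41, the 15 pairs had r from 0.52 to 0.84 with a median of 0.64, and all 15 passed on r. Per3 and Ciart were above background on only 11 and 10 of the 19 arrays. Each r with them, here and below, therefore rests partly on undetected values. No share over all pairs of genes on the array stands beside the count, so it is a description. On rho, Per1 with Per2 or Cry2 and Cry2 with Bhlhe40 or Ciart did not pass (adjusted p from 0.0676 to 0.0921). The highest were Per1 with Bhlhe40 (r = 0.84, rho = 0.81, permutation p = 6e-05, adjusted p = 0.000735, n = 19) and Per3 with Cry2 (r = 0.82, rho = 0.87, permutation p = 1e-05, the smallest the permutations can give, adjusted p = 0.00021). Leaving out the 2 animals farthest from the median gave 0.85 and 0.76 for these pairs. On slides 1, 2 and 3 they stood at 0.95, 0.75 and 0.93, and at 0.96, 0.82 and 0.75.

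Pairs with Ciart did not hold on slide 2, where r was 0.01 with Per1, 0.17 with Per2, 0.09 with Per3, 0 with Cry2 and -0.15 with Bhlhe40. The 6 pairs with Bhlhe41 had r from -0.07 to 0.13, and none passed. Dose is shared by all these points, and so are array and reference RNA. With group means removed as well as slide means, the 15 pairs ranged from 0.04 to 0.75 with a median of 0.38. Per1 with Bhlhe40 stood at 0.75 and Per3 with Cry2 at 0.57, while 4 pairs were under 0.2, namely Cry2, Bhlhe40 and Per1 with Ciart (0.04, 0.08 and 0.14) and Per1 with Per3 (0.19).

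Arntl, the activator that the repressors act on, ran opposite to the members other than Bhlhe41. Its r was -0.77 with Per1, -0.68 with Per2, -0.84 with Per3, -0.7 with Cry2, -0.74 with Bhlhe40 and -0.9 with Ciart, and each passed (permutation adjusted p from 0.00091 to 0.0065). Without the 2 farthest animals these ranged from -0.58 to -0.87, and rho ranged from -0.65 to -0.9. With group means removed too, r with Arntl ran from -0.84 for Ciart to -0.3 for Cry2. For Ciart, r with Arntl was -0.31 on slide 2 and -0.97 on each other slide. Dbp, an output gene driven by Clock and Arntl, had r of 0.86 with Per3, 0.83 with Cry2, 0.8 with Ciart and 0.67 to 0.75 with Per1, Per2 and Bhlhe40. Each of these passed, though Ciart with Dbp stood at 0.13 on slide 2. With group means removed too, r with Dbp ran from 0.4 for Per1 to 0.78 for Per3. No share over all genes stands beside the counts passing with Arntl or with Dbp, so they are descriptions. Nr1d1, which represses Arntl transcription, had r from -0.19 to 0.25 with the 7 members and passed with none.

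**Figure D4:**
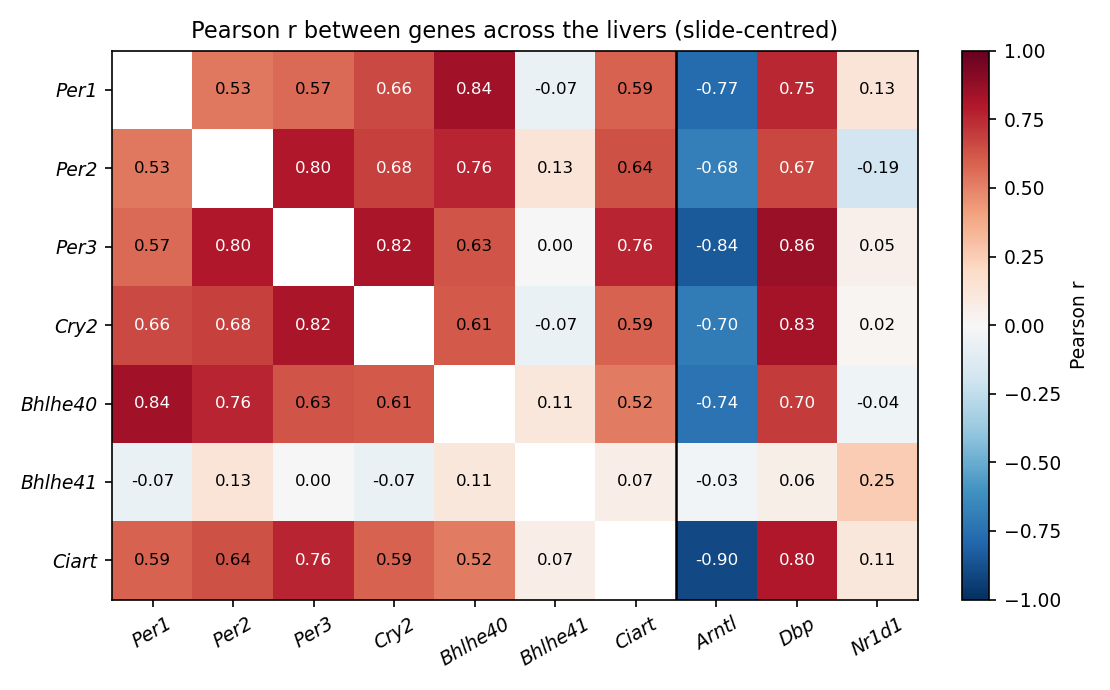
Pearson r (colour and number) between each pair of the 7 tested genes, and between each of them and Arntl, Dbp and Nr1d1 (right of the line), over 19 animals (18 for Ciart) after centring on slide means. The row of Bhlhe41 stays between -0.07 and 0.25, while the other 6 genes are negative with Arntl and positive with Dbp.

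Genes whose pattern was most like each member were sought among 13811 other named genes, by r of slide-centred ratios over the 19 animals, as a description. The highest were Timm8a1 for Per2 (r = 0.89), Gadd45a and Tef for Per3 (0.9 each) and Tef for Cry2 (0.89). Sbk1 was highest for Bhlhe40 (0.88), F3 for Ciart (0.89, 18 animals) and C8g for Bhlhe41 (0.88). Crcp and Nr1d2 were among the 3 highest for Per1 (0.88 and 0.86). Next in order were Gm14393 and Slc16a5 for Per2, Narf for Per3, and Slc30a1 and Amer1 for Cry2. Ddx20 and Mlxip followed for Bhlhe40, Serpina3m and Rnf224 for Bhlhe41, and Rbm47 and Pfkfb3 for Ciart. The most opposite were Tmem263 (Per1, -0.93), Stk24 (Per2, -0.93), Slc45a3 (Per3, -0.89), Ssna1 (Cry2, -0.85), Jcad (Bhlhe40, -0.92), Plch2 (Bhlhe41, -0.72) and Lrfn3 (Ciart, -0.93). Without slide centring, C8g with Bhlhe41 turned to -0.48, Gm14393 with Per2 fell to 0.2 and Gadd45a with Per3 fell to 0.45, while Tef with Per3 stood at 0.9. Among members, Bhlhe40 ranked 8th for Per1 and Cry2 ranked 20th for Per3, but many other pairs of members ranked far lower. Per2 ranked 546th and Per3 385th for Per1, Per1 ranked 955th for Per2, and Bhlhe40 ranked 758th for Ciart.

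The rest of the clock was read at 25 mg/kg against control, with an all-gene median of -0.01. Of 5 tested genes of the activating arm, 0 passed without the block and 2 passed as lower with it, where 0.33% of all probes did, and the list's median was -0.23. Arntl was -2.33 without the block (adjusted p = 0.136) and fell by 2.47 with it (adjusted p = 0.0291). Clock, its partner, was -0.56 (adjusted p = 0.416) and fell by 0.64 with the block (adjusted p = 0.0401). Rora, which drives Arntl transcription, stood at -0.15 (adjusted p = 0.856). Of the receptor repressors, Nr1d2 rose by 1.35 (SE 0.21, adjusted p = 0.0129) and Nr1d1 stood at 0.07 (adjusted p = 0.983), for a list median of 0.71.

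Among the 4 bZIP output factors, whose list median was 1.13, Dbp rose by 3.71 (adjusted p = 0.0129) and Nfil3, a repressor of the same D-boxes, fell by 1.45 (adjusted p = 0.0396). Tef was 1.69 higher, passing only with the block (1.9, adjusted p = 0.0026), and Hlf stood at 0.57 (adjusted p = 0.478). Of 22 tested kinases, ligases and proteases that act on Period and cryptochrome proteins, 1 rose and 0 fell, with a list median of 0.03, where 0.0442% of all probes passed as higher and 0.0136% as lower. The 1 was Usp2, a deubiquitinase (3.79, adjusted p = 0.0129), while Prkaa2, Btrc and Usp7 stood at 0.32, 0.26 and 0.23 (adjusted p = 0.569 to 0.798). None of 13 tested partners of the Period complex passed in either fit (median 0.07), with Tipin and Timeless at 0.31 and 0.37, and Sin3a and Sfpq at 0.2 and 0.25. None of 16 tested genes of the cAMP, glucocorticoid and heat inputs to Per transcription passed either (median 0.05). Of all probes, 0.0578% passed without the block and 0.816% with it, so a count of 0 in these lists is near those shares. Mtnr1a stood at -1.29 and Fkbp5, a glucocorticoid target, at 0.76 (adjusted p = 0.216 and 0.266), with Crem at -0.37 and Nr3c1, the glucocorticoid receptor, at 0.24.

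Whole liver was measured, so fewer cells of a type and less RNA per cell cannot be told apart. Of the tested markers of hepatocytes (9), macrophages (7), lymphocytes (7), stellate cells (8), endothelium (8) and cholangiocytes (5), 0 passed at 25 mg/kg with or without the block. Of all probes, 0.0578% passed without the block and 0.816% with it, so a count of 0 is near those shares. Without the block, all 9 hepatocyte and all 5 cholangiocyte markers were lower (medians -0.25 and -0.18, and -0.05 and -0.15 with it). So were 5 of 7 macrophage, 6 of 7 lymphocyte, 4 of 8 stellate and 4 of 8 endothelial markers. Mean log2 ratios over the macrophage markers were 1.46 to 2.6 at 25 mg/kg and 1.88 to 3.3 in controls, and over the endothelial markers 2.27 to 3.21 at 25 mg/kg and 2.46 to 3.26 in controls. Lymphocyte markers ranged from -0.32 to -0.22 at 25 mg/kg and from -0.27 to 0.13 in controls, and stellate markers from -1.78 to -1.31 at 25 mg/kg and from -1.86 to -1.53 in controls. Cholangiocyte markers ranged from -2.06 to -1.61 at 25 mg/kg and from -1.75 to -1.52 in controls. Cd8a, Cd79a, Epcam and Cftr were not kept as detected in liver. The hour of liver collection was not given in the labels used here, and its part in the values of these rhythmic genes was not tested.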

How the data were processed

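Median red and green spot and background intensities were deposited as scanner output of Feature Extraction 10.7.3.1, on a linear scale, per the file headers. The deposited table of log2 ratios of liver over reference was used only as an alternative, since no label states how the authors made it. Labelling used 200 ng of RNA per animal, per the labels' protocols.

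In limma 3.58.1 (R 4.3.3), normexp (offset 50) was applied to the median signals, followed by loess within each array with control spots at no weight. Outlier-flagged spots were set to missing and spots of a probe averaged. For the liver-channel means of Per3 and Ciart and the reference by slide, average intensities were also quantile-normalized between arrays. Each channel was then rebuilt from ratio and intensity. Probes with more than a share of 0.5 of their spots well above background in liver on at least 4 arrays were kept (29415 of 55681). Group means were fitted over all 19 arrays with lmFit and eBayes, two-sided, with Benjamini-Hochberg adjustment over all kept probes and a threshold of 0.05. A second fit added slide as a block. The fit and the promoter search were tested on simulated data and on known element positions. The number of arrays limits the precision.

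The labels give no replicate numbers, so those used here only name animals, and the labels do not say how animals were housed or handled. The named genes are the 8 members on every probe, the 4 genes of smallest p at 25 mg/kg in each clock list, with other cell types given by their summed level, and for each tested member the 3 genes of highest and the 1 of lowest r. Of these, 2 genes are not reported here. Members, lists and tests were chosen with earlier results of these data known. Symbols came from RefSeq on GRCm38.p6. Alternatives were the slide block, each slide alone, each array left out, only the compared arrays, no background correction, the scanner's processed signals, the deposited table, the red channel alone, other dim-probe filters, a trended robust prior, array weights and dose as a rank. Leaving out arrays with slide as a block, and keeping outlier-flagged spots, were added after seeing the data.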

Additional observations from a re-analysis of the deposited data

How the results depend on the processing

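The number of probes passing at 25 mg/kg was 17, and it became 240 with slide as a block, 48 with only the compared arrays, 27 with the red channel alone, 10 with no dim-probe filter, 33 with a trended robust prior and 146 with array weights. At 12.5 mg/kg it was 0, and 2, 6 and 3 with the block, with only the compared arrays and with probes above background on all arrays. For all treated against control it was 11, and 112 with the block, 21 with the red channel and 5 with no filter. The test of any dose gave 3, and 22 with the block, 9 with processed signals, 12 with array weights and 0 with no background correction, the deposited table, no filter or probes above background on all arrays. The linear trend gave 6, and 71 with the block, 2 with processed signals, 2 with no filter, 101 with array weights and 27 with dose as a rank. Leaving out 1 array gave 0 to 67 at 25 mg/kg, 0 to 5 at 12.5 mg/kg, 0 to 17 for all treated, 0 to 12 for any dose and 0 to 83 for the trend. It gave 0 to 0 at 6.25 mg/kg and for 25 against 6.25 mg/kg. With the block added, an alternative chosen after seeing the data, it gave 25 to 321 at 25 mg/kg and 5 to 170 for all treated. The causes were not tested.

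Among members, Bhlhe41 changed sign around 0. At 25 mg/kg it stood at -0.12 with processed signals, -0.29 with the red channel and -0.02 with array weights. For all treated it stood at -0.2, -0.32 and -0.02 under these and -0.0024 with the block, and its trend at -0.00182 with the red channel. Without 1 array it ranged from -0.01 to 0.28 at 25 mg/kg, -0.12 to 0.18 at 6.25 mg/kg and -0.03 to 0.26 for all treated, and with the block from -0.05 to 0.18 and from -0.07 to 0.16. Cry2 between 25 and 6.25 mg/kg ranged from -0.01 to 0.28. No other member changed sign under an alternative across all slides. At 25 mg/kg without the block, Per3 passed with only the compared arrays (adjusted p = 0.0391), Cry2 with the red channel or array weights (0.0369 and 0.0188), and both without 6.25 mg/kg replicate 5 (lowest adjusted p = 0.0386 and 0.0238). For all treated, Cry2 passed with the red channel (adjusted p = 0.0391). With outlier-flagged spots kept, no member's call changed. No paired analysis was possible because the labels give no replicate numbers. Detection limits Cry1, Bhlhe41, Per3 and Ciart, and leaving out arrays was not run for the trend with the block.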
